A study of Mus musculus with 11 samples.

Results

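Reads of 9 rod photoreceptor genes were followed in RNA from sorted retinal vascular endothelial cells of 11 mice. The genes are Sag, Pdc, Gnat1, Gngt1, Rcvrn, Pde6a, Pde6b, Pde6g and Rp1, 9 of the 55359 genes counted, and they were chosen by name as known rod genes, with earlier results of these data known. Each symbol matched 1 Ensembl identifier through the GENCODE mouse annotation. All mice were C57BL/6 pups (C57BL/6J in the study's methods) in the oxygen-induced retinopathy (OIR) model, in which a phase of high oxygen followed by room air provokes retinal neovascularization. They received an intravitreal injection of 0.5 µL at P12, either 100 ng/µL oncostatin M (OSM, a cytokine of the interleukin 6 family; 5 mice) or PBS (6 mice). At P17, CD31+/CD45- cells were sorted from the 2 pooled retinas of each mouse. The methods describe PBS injection of the fellow eye as the control, and whether the pool of an OSM mouse also holds a PBS-injected retina is not stated. Mice 1 to 4, 5 to 8 and 9 to 11 formed litters 1, 2 and 3, each with its own OIR run. Litters 1 and 2 held 2 OSM and 2 PBS mice each, and litter 3 held 1 OSM and 2 PBS mice, so that litter and OIR run cannot be told apart.

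Rods are the light-sensing neurons of dim light and the most abundant cells of the mouse retina. In a rod, light activates transducin, a G protein, which releases the brake on a phosphodiesterase. This enzyme degrades cyclic GMP, so that channels in the outer segment close. Arrestin and calcium sensors end the response. The listed genes cover these steps and the outer segment itself. Gnat1 and Gngt1 encode the rod transducin alpha and gamma subunits. Pde6a and Pde6b encode the catalytic subunits of the rod phosphodiesterase and Pde6g its inhibitory subunit. Sag encodes rod arrestin, Pdc encodes phosducin, which binds transducin beta and gamma, and Rcvrn encodes recoverin, a calcium sensor acting on the photoreceptor kinase. Rp1 encodes a microtubule-associated protein that organizes outer segment discs.

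The sorted cells carried the endothelial markers they were selected for. All 11 endothelial genes listed had reads in every mouse. Pecam1, which encodes CD31, lay between 938 and 1767 counts per 1000000 counts of the library (CPM). Ptprc, which encodes CD45, had reads in 5 of 11 mice and at most 22 of them. Total counts ranged from 26697990 to 56033479 per mouse, the highest in OSM mouse 9 of litter 3, and the number of genes with a read ranged from 16635 to 20898. How the rod reads came into the sorted material was not tested, and in bulk RNA, fewer rods and less RNA per rod cannot be told apart.

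As a description only, the stretch around the RefSeq start was inspected for 4 of the 9 genes. RefSeq promoter sequences (table build GRCm38.p6, 250 bases before to 50 after the RefSeq start) were at hand for Sag, Pdc, Gngt1 and Pde6b, and each matched the GRCm39 genome exactly once, on the plus strand, at chr1:87731152-87731451 for Sag, chr1:150194918-150195217 for Pdc, chr6:3993758-3994057 for Gngt1 and chr5:108535989-108536288 for Pde6b. For Gngt1, the RefSeq start lies 4960 bases downstream of the start of the GENCODE gene, so that its window is inside the gene as annotated there. Gnat1, Rcvrn, Pde6g, Rp1 and Pde6a are named only. Capitals mark exact matches, on either strand, to the core site of CRX (TAATCC), the site of NRL (TGCTGA) or a TATA box (TATAAA). CRX and NRL are transcription factors that drive rod gene expression.
Sag: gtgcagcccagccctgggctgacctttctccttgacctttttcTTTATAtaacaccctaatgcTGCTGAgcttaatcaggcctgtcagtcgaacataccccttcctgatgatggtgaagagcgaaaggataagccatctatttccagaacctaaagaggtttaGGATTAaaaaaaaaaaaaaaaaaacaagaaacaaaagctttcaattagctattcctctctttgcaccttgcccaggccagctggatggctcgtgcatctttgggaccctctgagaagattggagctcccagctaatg
Gngt1: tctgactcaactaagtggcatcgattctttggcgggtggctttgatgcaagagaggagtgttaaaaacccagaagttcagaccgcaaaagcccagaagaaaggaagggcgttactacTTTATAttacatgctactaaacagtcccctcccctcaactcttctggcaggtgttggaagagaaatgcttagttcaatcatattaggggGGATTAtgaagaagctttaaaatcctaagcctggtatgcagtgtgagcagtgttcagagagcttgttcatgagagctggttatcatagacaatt
Pde6b: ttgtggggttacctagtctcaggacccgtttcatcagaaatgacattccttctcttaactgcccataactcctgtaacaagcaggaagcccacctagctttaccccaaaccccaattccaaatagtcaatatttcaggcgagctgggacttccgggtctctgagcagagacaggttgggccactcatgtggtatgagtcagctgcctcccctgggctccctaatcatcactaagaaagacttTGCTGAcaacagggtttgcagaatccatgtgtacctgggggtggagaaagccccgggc
Pdc: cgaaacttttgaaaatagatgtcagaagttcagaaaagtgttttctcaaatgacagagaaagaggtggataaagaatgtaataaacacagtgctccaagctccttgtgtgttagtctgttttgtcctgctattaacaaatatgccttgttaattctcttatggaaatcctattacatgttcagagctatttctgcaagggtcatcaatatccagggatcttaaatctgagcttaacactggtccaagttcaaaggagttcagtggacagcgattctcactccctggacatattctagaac
The Sag sequence held 1 match to each of the 3 motifs, with the CRX core starting 87 bases before the RefSeq start, the NRL site 187 bases before it and the TATA box 207 bases before it. Gngt1 held 1 CRX core 44 bases before its start and 1 TATA box 133 bases before it. Pde6b held 1 NRL site starting 8 bases before its start. Pdc held none of these letters in this window. Among all 32851 promoters of the table, 7.06% held the CRX core, 19.5% the NRL site and 13.6% the TATA box, beside 2 of 4 rod promoters for each. No overlap between matches occurred in these sequences. A match is a string of letters and was not taken as a bound site.

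Summed over the 9 genes, rod reads made up a small share of each library, and the share differed widely between mice. It lay at 0.0319% and 0.0353% in OSM mice 1 and 2 and at 0.0277% and 0.0350% in PBS mice 3 and 4 of litter 1. In litter 2 it reached 0.372% in OSM mouse 5 and 0.129% in OSM mouse 6, beside 0.0584% and 0.0465% in PBS mice 7 and 8. In litter 3, the OSM mouse 9 had the lowest share of all, 0.0132%, and PBS mice 10 and 11 had 0.101% and 0.0280%. Litter 1 was therefore even across its 4 mice, whereas litters 2 and 3 each spread widely. One read in 269 came from the 9 genes in mouse 5, against 1 in 7577 in mouse 9, a 28.2-fold range. Counting error is small beside these differences, with 95% Wilson intervals of 0.370% to 0.374% for mouse 5 and of 0.0129% to 0.0135% for mouse 9. These intervals cover counting error only, since reads amplified by PCR without molecular identifiers are not independent molecules.

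**Figure D1:**
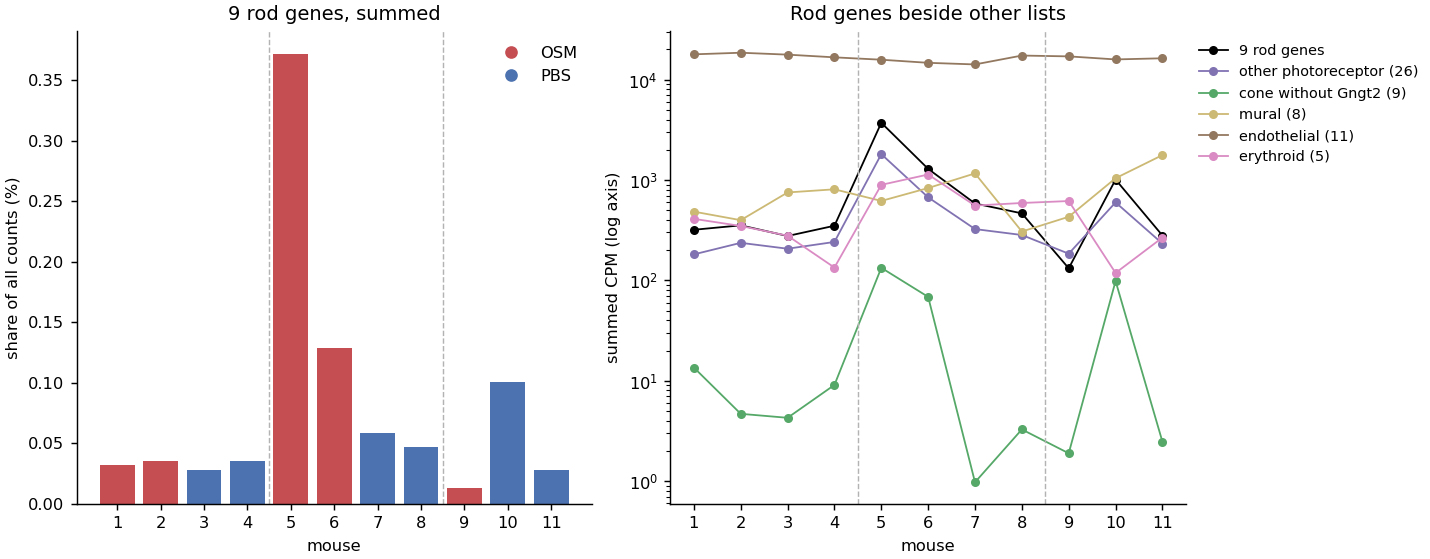
Left, the summed share of counts (%) of the 9 rod genes as a bar for each mouse, OSM red and PBS blue, with dashed lines between litters; mouse 5 stands at 0.372% and mouse 9 at 0.0132%. Right, summed CPM on a log axis for the 9 rod genes and 5 other gene lists, with the number of genes in brackets; the 26 other photoreceptor genes follow the rod genes over mice, whereas the endothelial sum stays between 14190 and 18563.

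Expressed as CPM, the 9-gene sum was 1164 ± 1499 (SD, n = 5) in OSM mice and 494 ± 279 (SD, n = 6) in PBS mice. The OSM values ran from 132 to 3721 with a median of 353, and the PBS values ran from 277 to 1010 with a median of 408. The OSM group therefore held both the highest and the lowest mice, its mean was above and its median below that of PBS, and the groups overlapped.

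Each gene was then taken in turn, starting with transducin. Gnat1 (ENSMUSG00000034837, GRCm39 chr9:107551673-107556911, minus strand) was read at 92.9, 128, 1326, 471 and 51.5 CPM in OSM mice 1, 2, 5, 6 and 9. The PBS mice ranged from 80.4 to 349.6 with a median of 135. Mice 5 and 6 exceeded every PBS mouse and mouse 9 was below every PBS mouse. In the annotation used here, exons of Gm57061 on the opposite strand cover 50.7% of the Gnat1 exon bases. Gm57061 had no count of its own in these data and the counting did not use strand, so reads of the pair cannot be told apart. Gngt1 (ENSMUSG00000029663, chr6:3989048-3997436, plus strand) gave 28.6, 9.19, 216, 94.4 and 7.23 in the OSM mice and 12.4 to 42.8 with a median of 18.7 in the PBS mice. Here too mice 5 and 6 were the highest and mouse 9 the lowest, although OSM mouse 2 also fell below the PBS range.

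Over the mice, the phosphodiesterase genes Pde6g and Pde6b spanned 28.1-fold and 27.1-fold, beside 25.7-fold for Gnat1 and 29.9-fold for Gngt1. Pde6a varied more, with few or no reads in some mice. Pde6g (ENSMUSG00000025386, chr11:120338431-120344326, minus strand) had 46.9, 25.3, 432, 105 and 15.4 CPM in OSM mice and 17.6 to 104 with a median of 31.7 in PBS mice. Pde6b (ENSMUSG00000029491, chr5:108536243-108580263, plus strand) had 14.3, 26.3, 193, 58.1 and 7.10 in OSM mice and 14.5 to 63.9 with a median of 41.0 in PBS mice. For Pde6b, OSM mouse 5 alone lay above the PBS range, and OSM mice 1 and 9 lay below it. Pde6a (ENSMUSG00000024575, chr18:61353387-61422995, plus strand) had 0.0567, 4.79, 47.7, 4.60 and 0 in OSM mice and 0.480 to 14.3 with a median of 7.87 in PBS mice. It was the gene with the fewest reads of the list, with 2 reads in mouse 1, none in mouse 9 and 15 in PBS mouse 11. If reads were independent, a count of 0 in mouse 9 would allow up to 0.0535 CPM (3 reads). Pde6a in mouse 5 would then be at least 891-fold higher than in mouse 9. Reads amplified by PCR without molecular identifiers are not independent, so this fold is not a firm floor.

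Of the genes that act on shutoff and calcium feedback, Sag (ENSMUSG00000056055, chr1:87731402-87772880, plus strand) had 84.4, 111, 849, 292 and 26.2 CPM in OSM mice and 63.4 to 238 with a median of 125 in PBS mice. Rcvrn (ENSMUSG00000020907, chr11:67586141-67594159, plus strand) had 16.6, 7.86, 222, 91.7 and 3.18 in OSM mice and 12.7 to 46.5 with a median of 14.8 in PBS mice. It had the widest range among the 7 genes with reads in every mouse, 69.9-fold from mouse 9 to mouse 5. Pdc (ENSMUSG00000006007, chr1:150195168-150209657, plus strand) had 23.2, 22.0, 376, 126 and 21.4 in OSM mice and 17.7 to 104 with a median of 31.0 in PBS mice. It had the narrowest range of those 7, 21.2-fold, and was the single gene whose lowest mouse was not mouse 9 but PBS mouse 3.

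Rp1 (ENSMUSG00000025900, chr1:4069780-4479506, minus strand) followed its own course. It had 12.4, 19.5, 59.1, 49.5 and 0 CPM in OSM mice and 1.05 to 47.5 with a median of 15.3 in PBS mice. Mice 5, 6, 10 and 11 were close together between 43.1 and 59.1, whereas mouse 11 had the third lowest summed share. Mouse 9 had no Rp1 read although 2887 reads of Gnat1 were counted there. For independent reads, the 3-read limit would put Rp1 in mouse 5 at least 1103-fold higher. As for Pde6a, that fold is not a firm floor.

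**Figure D2:**
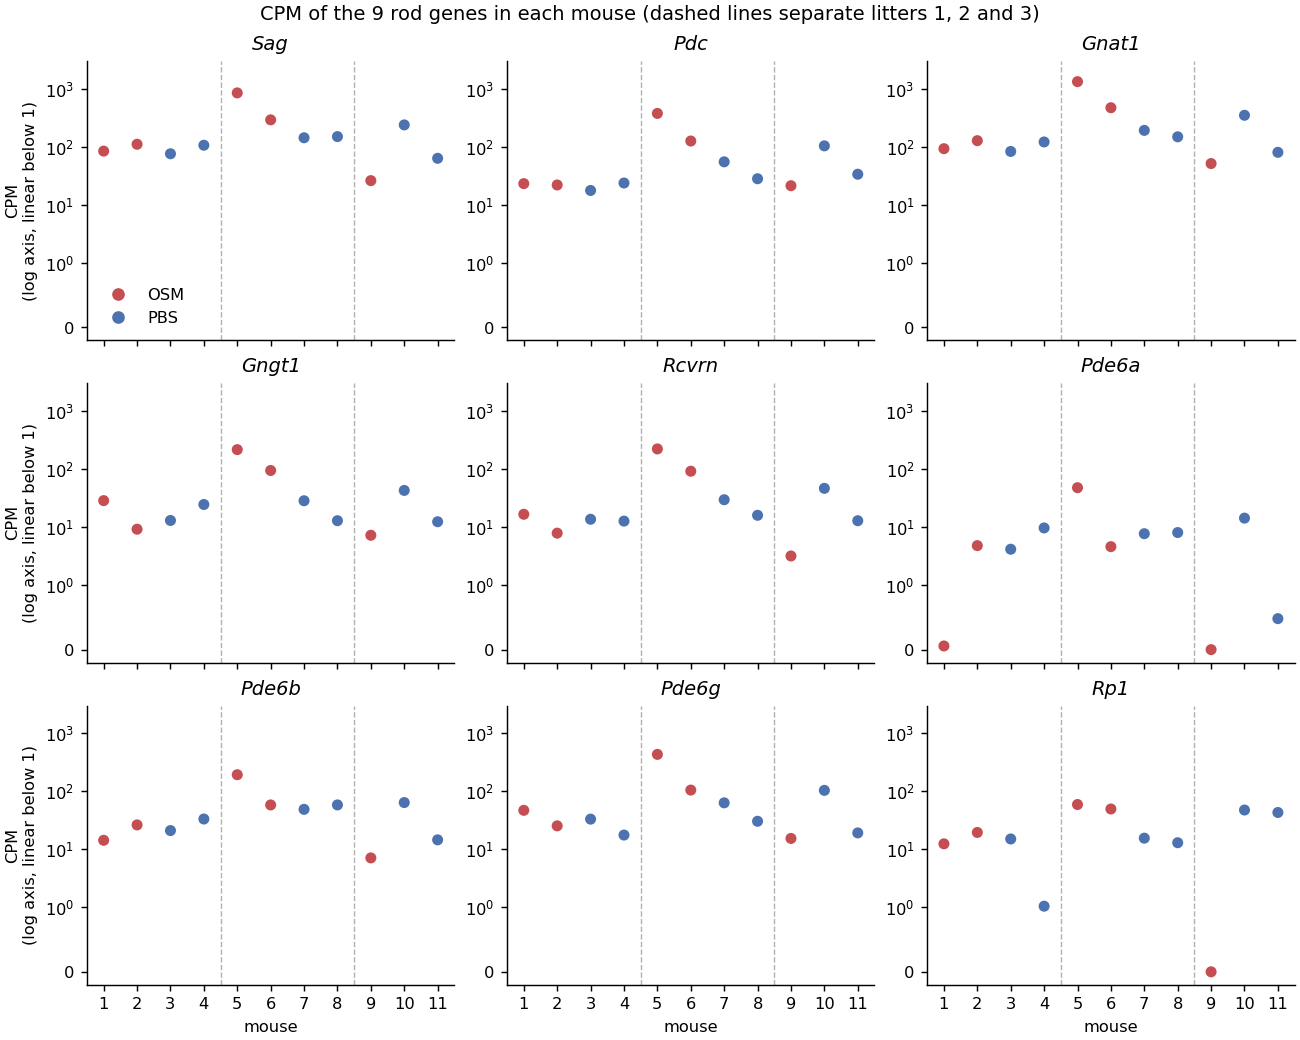
CPM of each rod gene on a log axis that is linear below 1, with 1 point per mouse, OSM red and PBS blue, and dashed lines between litters 1, 2 and 3. All 9 genes are highest in OSM mouse 5 and 8 of 9 are lowest in OSM mouse 9, the exception being Pdc.

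Over all 17050 genes that passed the filter on low counts, 11.1% were highest in mouse 5 and 8.75% were lowest in mouse 9. The SD over mice of log2 CPM, here on TMM-scaled libraries with a prior count of 2, was 1.29 for Sag, 1.35 for Gnat1 and 1.67 for Rcvrn, and at most 2.99, for Pde6a. The median over all tested genes was 0.71, and the 11 endothelial genes had SDs between 0.12 and 0.36. The SD exceeded that of 64.2% of all tested genes for Sag, 65.4% for Gnat1, 73.2% for Rcvrn and 98.4% for Pde6a. Many other genes therefore varied as much as Sag and Gnat1 or more.

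Levels were compared between genes per kilobase of annotated exon. Gnat1 stood first at 91.4 ± 122 (SD over 11 mice) CPM per kilobase and exceeded every other listed gene's mean, followed by Rcvrn at 40.9 ± 61.4, Pde6g at 35.0 ± 52.1, Sag at 21.9 ± 25.9, Pdc at 21.6 ± 30.3, Gngt1 at 9.95 ± 13.9, Pde6b at 9.70 ± 10.3, Rp1 at 1.98 ± 1.64 and Pde6a at 1.97 ± 2.88. The SDs exceeded most of the steps between neighbours, so the order was read within mice. Gnat1 was above Rcvrn in 11 of 11 mice, and Pdc was above Gngt1 in 11 of 11. Pde6b was above Rp1 in 10 of 11 mice. Rcvrn was above Pde6g in 6 mice, Pde6g above Sag in 8, Sag above Pdc in 6, Gngt1 above Pde6b in 4 and Rp1 above Pde6a in 6, so that these neighbours do not have a fixed order. The scale rests on the union of annotated exons, which ranges from 1051 bases for Rcvrn to 12635 bases for Rp1 and may hold exons that are rarely used.

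The make-up of the rod reads changed far less between mice than their amount. Gnat1 supplied 33.6% ± 3.32 (SD, n = 11) of the 9-gene sum and never less than 28.7% or more than 39.0%. Sag supplied 25.8% ± 4.10. Together with Pde6g at 9.51% ± 2.96 and Pdc at 9.14% ± 3.09 these genes led the sum. Pde6b followed with 6.95% ± 2.47, Gngt1 with 5.28% ± 1.91, Rcvrn with 4.47% ± 1.46, Rp1 with 4.19% ± 4.16 and Pde6a with 1.08% ± 0.857. Rp1 and Pde6a were the least steady parts, with coefficients of variation of 99.2% and 79.2% against 9.90% for Gnat1 and 15.9% for Sag. Rp1 ranged from 0% of the sum in mouse 9 and 0.299% in mouse 4 to 15.4% in mouse 11. Mouse 5, with the most rod reads, and mouse 9, with the fewest, had Gnat1 shares of 35.6% and 39.0%.

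**Figure D3:**
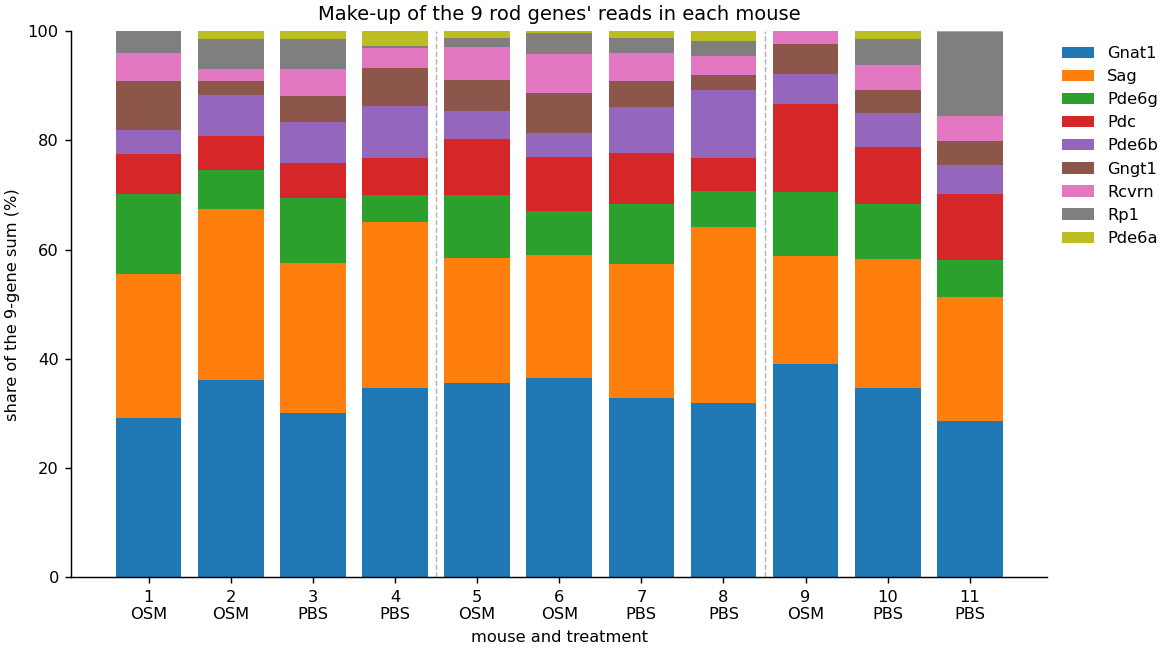
Share of the 9-gene sum (%) held by each rod gene, stacked to 100% in each mouse, with treatment under the mouse number and dashed lines between litters. Gnat1 and Sag form the larger part of the bar in every mouse, and the Rp1 segment is widest in PBS mouse 11 (15.4%) and absent in OSM mouse 9.

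Over the 11 mice, log2 CPM of the 36 pairs of rod genes correlated with a median Pearson r of 0.874 (range 0.519 to 0.975) and a median Spearman rho of 0.764. All 36 values of r were above 0. The points share libraries, litters and depth, and these values are given as a description. Among the 7 genes without Pde6a and Rp1, the 21 pairs had a median r of 0.922, and the 15 pairs with Pde6a or Rp1 had a median of 0.604. Sag and Gnat1 were the closest pair (r = 0.975, rho = 0.991), and Gngt1 and Rp1 the least close (r = 0.519). Pde6a was closest to its partner subunit Pde6b (r = 0.901) and to Sag (r = 0.809), and was at 0.575 with Pde6g.

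Part of this rests on mice 5 and 6, the pair farthest from the median of the summed share. Without them, the median r over the 36 pairs was 0.724 (range 0.396 to 0.949), and the number of pairs above 0.8 went from 22 to 10. Sag with Gnat1 (0.946), Sag with Pde6b (0.949) and Pde6a with Pde6b (0.914) held up, whereas Pdc with Sag went from 0.875 to 0.636 and Gngt1 with Pde6b from 0.791 to 0.574. After the litter means were subtracted, the median r over the 36 pairs was 0.810.

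**Figure D4:**
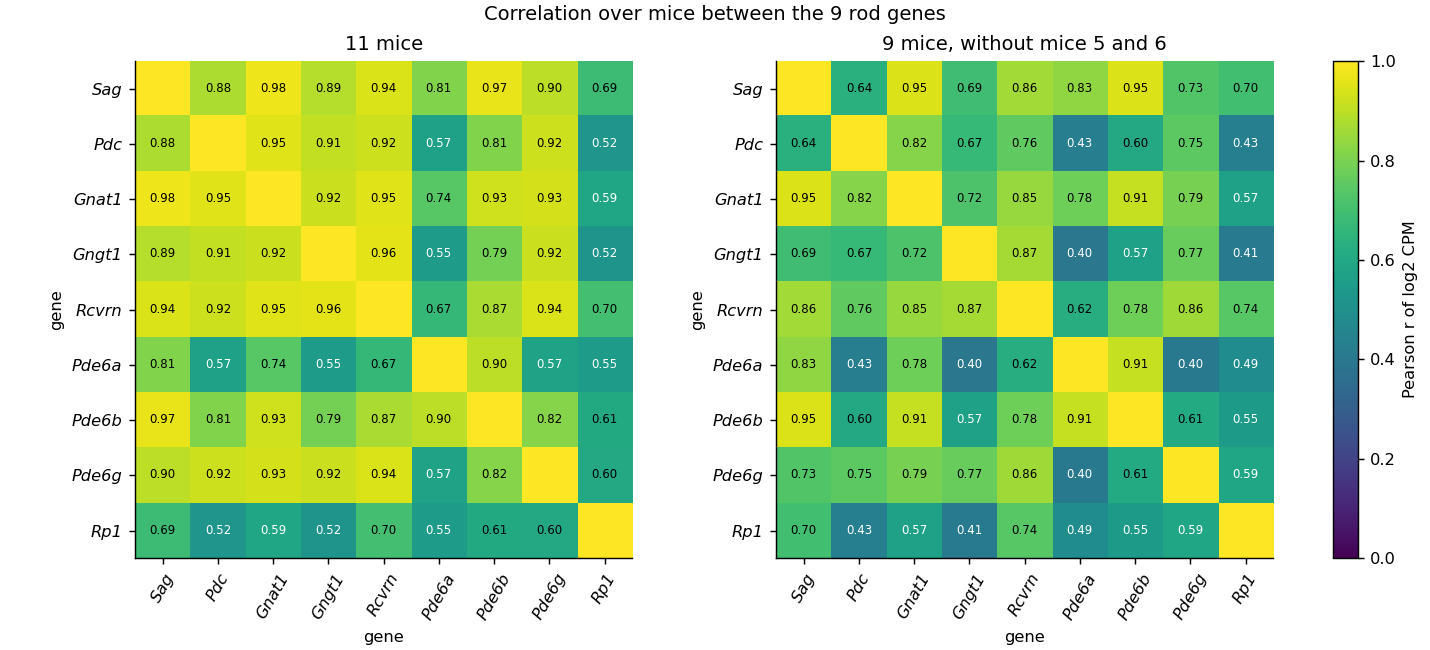
Pearson r of log2 CPM for each pair of rod genes, over 11 mice on the left and over the 9 mice without mice 5 and 6 on the right, with the colour scale from 0 to 1. Rp1 and Pde6a form the darker rows on the left, and most cells darken on the right, where the median is 0.724 against 0.874.

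As a sum, other photoreceptor genes moved with the 9, and singly they did so less closely. Of 26 further rod and shared photoreceptor genes, 24 were tested and 22 were highest in mouse 5. Their sum ran from 182 to 1812 CPM in OSM mice and from 207 to 599 in PBS mice, and its log2 value correlated with that of the 9-gene sum at r = 0.967 (rho = 0.936) over 11 mice, 0.893 without mice 5 and 6 and 0.970 with litter means subtracted. The disc, outer segment and visual cycle genes were closest (r = 0.994; 0.984 without mice 5 and 6). Prph2 and Rom1, which encode paired tetraspanins of the disc rim, averaged 99.4 ± 137 and 64.8 ± 75.3 CPM (SD, n = 11), and Rdh12, a retinol dehydrogenase, 19.3 ± 11.7. The phototransduction genes came next (r = 0.898; 0.636 without mice 5 and 6), with Unc119 at 46.7 ± 51.5, Rgs9 at 31.0 ± 10.5 and Guca1b at 30.3 ± 35.2. Rgs9, which encodes a GTPase-activating protein for transducin that other tissues also use, did not share the pattern of the members (r = -0.049). The transcription factors Nr2e3 (13.4 ± 12.5), Crx (13.2 ± 11.2) and Nrl (8.65 ± 11.6) were low, and their list correlated at 0.763, and at 0.292 without mice 5 and 6. A sum follows its most abundant genes. Each tested gene was therefore also set against the mean of the 9, each scaled to mean 0 and SD 1. The median r of the 24 was 0.713, with 23 above 0, and 0.500 without mice 5 and 6. It was 0.802 (0.616 without those mice) for the disc list and 0.525 (0.153) for the phototransduction list.

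Cone genes were lower. Without Gngt2, which was read at 37.5 ± 12.9 CPM with little change over mice, the other 9 cone genes summed to 1.89 to 133 in OSM mice and 0.973 to 98.4 in PBS mice, with the highest values in mice 5, 10 and 6. Opn1mw, the middle-wavelength cone opsin, had 53.2 CPM at most, in mouse 5. The cone sum without Gngt2 correlated with the rod sum at r = 0.812 (0.580 without mice 5 and 6).

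Markers of other retinal cells were near 0 or did not follow the rod reads. The 8 bipolar genes summed to between 0.0702 and 15.6 CPM in OSM mice and between 0.370 and 13.8 in PBS mice (r = 0.329), with Trpm1 and Grm6 the highest. Apart from Rbpms and Sncg, which were read in every mouse, the 10 other amacrine, horizontal and ganglion cell genes summed to 0.206 to 3.46 in OSM and 0.313 to 6.77 in PBS mice (r = -0.260). Of the Müller glia genes, Glul was at 237 ± 35.6, and the other 5 summed to 0 to 135 in OSM and 11.7 to 108 in PBS mice (r = 0.079). Gfap had reads in 4 of 11 mice. Of the pigment epithelium genes, Rgr and Lrat had no read in any mouse, which would allow at most 3 reads per library if reads were independent. Rpe65 had reads in 1 mouse. Leukocyte and microglia genes summed to 0.284 to 4.67 in OSM and 0.241 to 10.0 in PBS mice (r = 0.041).

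Some other measures differed between the same mice. Erythroid genes, led by Hbb-bs, summed to 349 to 1135 in OSM and 119 to 591 in PBS mice (r with the rod sum 0.316; -0.433 without mice 5 and 6). The 8 mural genes, led by Rgs5, summed to 398 to 832 in OSM and 307 to 1773 in PBS mice (r = 0.149). The endothelial sum was 14728 to 18563 in OSM and 14190 to 17765 in PBS mice (r = -0.541; -0.452 without mice 5 and 6). Mitochondrially encoded genes summed to between 6350 and 9212 in litter 1 and between 11512 and 19826 in litters 2 and 3 (r = 0.444), and total counts had r = -0.558, with the lowest rod share in the deepest library. The part of these measures in the rod levels was not tested.

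Outside the 9, the tested genes were ranked by Pearson r over the 11 mice between their log2 CPM and the mean of the 9 genes after each was scaled to mean 0 and SD 1. The listed genes Prph2 (r = 0.972), Unc119 (0.972) and Rom1 (0.955) were among the 10 most alike, followed by Rtbdn (0.946), Tmc4 (0.921), Hmox1 (0.919), Reep6 (0.918), Lsg1 (0.915) and Rufy3 (0.911). Rtbdn encodes a riboflavin-binding protein of the photoreceptor surround, Reep6 a membrane-shaping protein of rods, and Hmox1 heme oxygenase 1. All of the genes named were highest in mouse 5. Their spans differed, with Rtbdn at a median of 7.31 and at most 101 CPM, and Lsg1 at a median of 68.9 and at most 111. Of all 17041 tested genes outside the 9, 0.364% had r above 0.8, compared with 9 of the 24 tested photoreceptor genes (37.5%).

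Whether OSM changed the rod reads was tested by edgeR (quasi-likelihood) on all genes, where litter was a term and p-values were adjusted by Benjamini-Hochberg over the 17050 genes. All 9 rod genes passed the filter on low counts. None was called at an adjusted p under 0.05, and none had an unadjusted p under 0.05, where the background over all tested genes was 0% called after adjustment and 4.96% at the unadjusted level. DESeq2 called none of the 9, and 168 of the 22014 genes that it gave an adjusted p. Of the 9 fold changes, 7 were above 0 and 2 below, with a median log2 fold change of 0.60 beside -0.01 over all tested genes.

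Gnat1 had a log2 fold change (OSM over PBS) of 0.60 with an SE of 0.72, and Gngt1 of 0.75 with an SE of 0.84. Pde6g had the highest estimate of the 9, 0.86 with an SE of 0.80. Pde6b was at -0.15 with an SE of 0.64 and Pde6a at -0.84 with an SE of 1.82. The subunits of the phosphodiesterase thus had estimates on both sides of 0. Sag was at 0.38 (SE 0.69), Pdc at 0.73 (SE 0.70), Rcvrn at 0.53 (SE 0.92) and Rp1 at 0.70 (SE 1.35). The adjusted p of edgeR was 1 for all 9. The 95% intervals were wide, from -0.98 to 2.18 for Gnat1, from -1.57 to 1.26 for Pde6b and from -4.86 to 3.17 for Pde6a, and each of the 9 included 0. For no rod gene did the OSM and PBS mice separate without overlap, against 0.405% of all tested genes. With no filter on low counts, the same test called 2 of the 9, Gnat1 (adjusted p = 0.0472 by edgeR) and Pde6g (0.0243), at log2 fold changes of 0.60 and 0.86, and 0.225% of the 28940 genes then tested. The median log2 fold change of the 9 was -0.69 without litter 2, 1.36 without litter 3 and 1.35 without mouse 9, with no member called in any of these fits.

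Within litters, the direction differed. In litter 1, the difference in mean log2 CPM (OSM minus PBS mice) was 0.12 for Gnat1, 0.11 for Sag and -0.13 for Gngt1. It was 0.14 for Pdc, -0.20 for Rcvrn, 0.52 for Pde6g and -0.44 for Pde6b. Pde6a was at -3.10, with 2 reads in OSM mouse 1, and Rp1 at 1.94, with 34 reads in PBS mouse 4. The OSM and PBS mice of litter 1 overlapped for all 9 genes, beside 68.5% of all tested genes. In litter 2 the difference was 2.22 for Gnat1, 1.76 for Sag, 2.89 for Gngt1, 2.71 for Rcvrn and 2.27 for Pde6g. Both OSM mice were above both PBS mice for 7 of 9 genes there, the exceptions being Pde6a and Pde6b. In litter 3 it was -1.66 for Gnat1, -2.19 for Sag, -1.62 for Gngt1, -2.88 for Rcvrn and -1.49 for Pde6g, and the 1 OSM mouse was below both PBS mice for 9 of 9 genes. Over all tested genes, OSM mice lay above PBS mice in litter 2 for 15.0% and the OSM mouse lay below in litter 3 for 30.2%. The 9-gene sum of the OSM mice was 1.07 times that of PBS mice in litter 1 and 4.78 times in litter 2, whereas in litter 3 that of PBS mice was 4.89 times that of the OSM mouse. These ratios rest largely on mice 5 and 10, and went to 2.46 in litter 2 without mouse 5 and to 2.12 in litter 3 without mouse 10. Litter 3 rests on 1 OSM mouse and has no spread of its own.

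The difference between litters in the OSM effect was tested as an interaction in edgeR. None of the 9 rod genes was called after adjustment (0% of all tested genes), with adjusted p between 0.334 for Rp1 and 0.773 for Pde6a. At an unadjusted p under 0.05 there were 8 of 9, all but Pde6a, where 6.42% of all tested genes passed. The 9 genes move together and are not separate observations of this difference. Leaving out mouse 9, which leaves litters 1 and 2 to compare, gave 4 of 9 at the unadjusted level (5.68% of all genes tested), and leaving out mouse 5 gave 6 of 9 (7.14%). Rp1 was called by edgeR without mouse 3 (adjusted p = 0.019) or without mouse 4 (0.0253), and was the 1 gene called among all genes in each of these fits. With no filter on low counts, 9 of 9 were called after adjustment, beside 1.05% of the 28940 genes then tested.

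**Figure D5:**
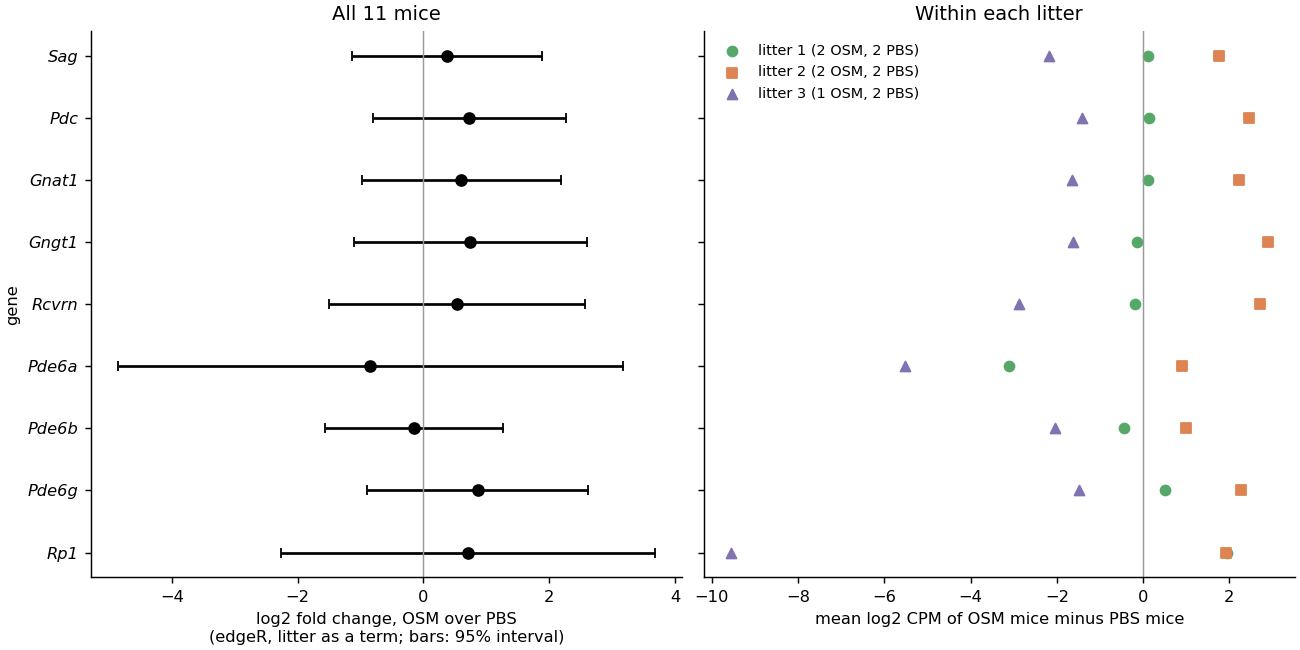
Left, log2 fold change of OSM over PBS for each rod gene from edgeR with litter as a term (points, with 95% intervals as bars). Right, the mean log2 CPM of OSM mice minus that of PBS mice within litters 1, 2 and 3; every interval on the left includes 0, and on the right the 9 squares of litter 2 lie above 0 and the 9 triangles of litter 3 below it, those of Pde6a and Rp1 resting on 0 reads in mouse 9 and thus on the prior count.

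Litters were compared as well. The litter means of Gnat1 were 106, 535 and 161 CPM in litters 1, 2 and 3, and those of Rcvrn were 12.7, 89.8 and 20.8. Litter 2 had the highest mean for all 9 genes. Without mouse 5, its means were 271 CPM for Gnat1 and 45.8 for Rcvrn, and it was the highest for 8 of 9, the exception being Rp1, whose mean was then higher in litter 3 (30.2 CPM). In the fit with treatment, litter 2 was above litter 1 by 2.09 on the log2 scale for Gnat1, by 2.57 for Rcvrn and by 2.45 for Pdc. None of the 9 was called between litters by edgeR, with adjusted p from 0.398 for Pdc to 0.864 for Rp1 (0.0176% of all tested genes were called). Pdc and Pde6b had an unadjusted p under 0.05, where 10.3% of all genes did. With no filter on low counts, edgeR called 8 of the 9, beside 2.16% of the 28940 genes then tested. DESeq2 called 0 of the 9 between litters and 995 of the 55359 genes counted, not all of which are given an adjusted p.

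The other photoreceptor lists gave a like count between treatments. Of the 24 tested genes, 0 were called and 1, the photoreceptor regulator Samd7, had an unadjusted edgeR p under 0.05. Samd7 had a log2 fold change of 7.16 (SE 2.79) with reads in 7 of 11 mice. Of the 24 estimates, 16 were above 0 and 8 below, with a median log2 fold change of 0.43. Of 8 tested cone genes, 0 were called and 1, Gnb3, a G protein beta subunit, had an unadjusted edgeR p under 0.05. Gnb3 had a log2 fold change of 5.38 (SE 1.75) with reads in 5 of 11 mice. Mice without reads limit the estimates of Samd7 and Gnb3. The 11 endothelial genes had estimates between -0.09 and 0.16, none called. In the mural list 8 of 8 estimates were below 0 and in the erythroid list 5 of 5 above 0. Of them, 1 and 5 had an unadjusted edgeR p under 0.05, and none was called after adjustment. Over all tested genes, 4.96% had an unadjusted p under 0.05 and the median log2 fold change was -0.01. Genes of a list share the same libraries and are not separate observations.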

How the data were processed

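RNA of sorted CD31+/CD45- cells, pooled from both retinas of 1 mouse per sample, was primed on poly(A), amplified by PCR with no molecular identifiers, and read from 1 end. The authors aligned the reads to GRCm39 with STAR and counted them per GENCODE gene with featureCounts, without strand. The deposited values are raw counts for 55359 genes in each of 11 mice. The headers of 2 count files named other mouse numbers than their samples' labels; the sample records were followed. Symbols and coordinates came from GENCODE vM39.

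Counts were tested in edgeR 4.0.16 (quasi-likelihood, robust, TMM; filterByExpr with a count minimum of 10, leaving 17050 genes) with litter and treatment as terms, and in DESeq2 1.42.0. Calls required an adjusted p under 0.05 over all tested genes. log2 CPM used a prior count of 2; SEs are the fold change over the root of F. Unlogged CPM use all counts of a mouse. Total counts per mouse give the depth. The methods name PBS injection of the fellow eye as the control; whether an OSM sample pools such an eye is not stated. P-values weigh an effect against the spread between mice that the terms of the fit leave, estimated partly from other genes.

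The members and gene lists were chosen with earlier results of these data known. Named were the 9 members, the 3 genes of each list with the highest mean, Pecam1, Ptprc, and the 10 genes most alike to the members; genes singled out beyond these were chosen after their values were seen. One of those 10 is not reported here. Alternatives were no litter term, other size factors, no filter, no robust estimation, DESeq2, a rod covariate, and leaving out each mouse or litter.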

Additional observations from a re-analysis of the deposited data

Results flagged for a closer look

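Among 20 sets of values (9 genes and their sum, in OSM and in PBS mice), 3 held a mouse whose gap to the next exceeded Dixon's 95% limit. All 3 were OSM mouse 5. For normally distributed values, chance gives about 1 in 20 independent sets. These CPM were not logged, and Pde6a in OSM mice had an SD of 20.4 beside a mean of 11.4, so that rate need not hold. The sets are also not independent, since the genes vary together, their sum is among them and the same mouse gave all 3. Pde6a was at 47.7 CPM there, with the next OSM mouse at 4.79, Pde6b was at 193 with the next at 58.1, and Pde6g was at 432 with the next at 105.

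For 7 genes both OSM mice of litter 2 were above both PBS mice and the OSM mouse of litter 3 was below both PBS mice. The unadjusted edgeR p of the interaction of treatment and litter was 0.00621 for Sag, 0.00615 for Pdc, 0.00771 for Gnat1, 0.0101 for Gngt1, 0.00178 for Rcvrn, 0.034 for Pde6g and 0.000571 for Rp1. After adjustment over all tested genes by edgeR, none passed, the lowest value being 0.334.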

How the results depend on the processing

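When genes with low counts were kept, edgeR called 2 of the 9 genes between treatments (65 genes in all, 0.225%). It called 8 of the 9 between litters (2.16% of all genes) and 9 of 9 by the interaction (1.05%). DESeq2's Wald test called 168 of the 22014 genes that it gave an adjusted p. Leaving out each mouse gave 0 members called between treatments in every case, 0 between litters and 0 to 1 by the interaction (chosen after seeing the data). The cause was not tested.

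The median log2 fold change of 0.60 became 1.35 with no litter term, 1.35 without mouse 9, 1.36 without litter 3 and -0.69 without litter 2, with a range of 0.11 to 1.35 over single mice left out. Without litter 2 the estimates turned to -0.80 for Sag, -0.53 for Pdc, -0.65 for Gnat1, -0.69 for Gngt1, -1.13 for Rcvrn, -0.35 for Pde6g and -0.60 for Rp1. Pde6a turned to 0.63 and Pde6b to 0.58 with no litter term, to 0.12 and 0.41 without mouse 9, to 0.15 and 0.078 without litter 1, and to 0.12 and 0.41 without litter 3. With single mice left out, Pde6b ran from -0.70 to 0.41 (0.040 without mouse 1, 0.035 without mouse 4, 0.13 without mouse 10), Sag from -0.14 (mouse 5) to 1.03 (-0.033 without mouse 7, -0.010 without mouse 8), Rcvrn from -0.17 (mouse 8) to 1.35 (-0.061 without mouse 7) and Pde6a from -2.63 to 0.12. No paired analysis was possible because mouse numbers are not shared between the groups.

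The median pair correlation was 0.764 as Spearman's rho and lay between 0.779 (without mouse 5) and 0.897 as Pearson's r under the 14 other alternatives; it was 0.724 without mice 5 and 6 together. The median summed share of 0.0353% was 0.0356% without mitochondrially encoded genes and 0.0229% without Gnat1. With the rod level as a covariate, edgeR called 0 genes. Of the 17050 genes, 1041 had an unadjusted p under 0.05 in that fit, beside 846 (4.96%) in the main fit. The 9 members, from which the covariate was built, stayed among the genes tested. For Pde6a and Rp1, mice with few or no reads limit the estimates.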
